A study of Mus musculus with 18 samples.

Results

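Foxa2 cells of the embryonic day (E) 7.5 mouse embryo are described here beside cells of the same libraries that held neither Foxa2 nor Mesp1. A cell counted as a Foxa2 cell when at least 1 Foxa2 transcript and no Mesp1 transcript was found among at least 2000 nuclear transcripts, and as a double-negative cell when both genes were at 0. Of 429 E7.5 cells with that depth, 49 were Foxa2 cells and 243 were double-negative cells; 972 cells of the whole series reached it. The remaining 137 E7.5 cells held Mesp1. A comparison within a library needed at least 3 cells of each kind, which 8 libraries (replicates 1, 2, 3, 4, 6, 7, 8 and 12) provided, with 45 Foxa2 cells and 213 double-negative cells.

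The series holds single-cell RNA sequencing of wild-type C57BL/6 embryos at E6.75 and E7.5, with 12 libraries at the later stage. No mutation, transgene or treatment was used in either stage. At E7.5, embryos of 1 or 2 litters were trimmed so that extraembryonic mesoderm was kept, pooled and dissociated. Single E7.5 cells were then sorted by flow cytometry into lysis buffer, whereas the labels give the E6.75 cells as picked by hand. Foxa2 and double-negative cells therefore shared strain, age, pool and library, the embryo of each cell was not known, and both kinds of cell were defined only by the transcripts found in them.

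Foxa2 is a forkhead transcription factor that can bind its sites in closed chromatin. In the gastrula it marks cells that leave the anterior primitive streak as definitive endoderm or as axial mesoderm, the lineage of the node and notochord, and it is also made in visceral endoderm. Sox17 is a transcription factor of definitive endoderm, and T (Brachyury) one of the streak and the axial mesoderm. Mesp1 is a transcription factor of the early mesoderm, so leaving out its cells removed part of the nascent mesoderm from both sides.

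In the GRCm38 build, Foxa2 lies on chromosome 2 at 148042877 to 148046969 on the minus strand. Sox17 is found on the minus strand of chromosome 1, from 4490931 to 4497354. The T gene is on the plus strand of chromosome 17, from 8434423 to 8442496.

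The choice rested on a detected transcript, so Foxa2 and Mesp1 differ by construction and were not tested. Foxa2 counts in the 49 cells ran from 1 to 72 with a median of 4, and 18 cells held exactly 1. Just outside the depth limit were 10 Foxa2 cells, the deepest with 1680 transcripts, while the shallowest cell inside it had 2253. Just outside the limit on cells per library were replicates 9, 10 and 11, with 1, 1 and 2 Foxa2 cells. Foxa2 was found in 16.8% of the 292 cells without Mesp1 and in 12 of the 137 cells with Mesp1 (8.76%). Barcodes that received no cell held 8 Foxa2 transcripts in all, against 521 in barcodes in use.

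A cell sequenced more deeply has a greater chance of showing a transcript, so depth was compared first. Within libraries, the log2 median depth of Foxa2 cells minus that of double-negative cells was 0.26 on average (SD 0.92, n = 8), with 5 libraries above 0 and a range of −1.59 to 1.27. That difference was within the spread between libraries (p = 0.469 in a two-sided exact test over all sign flips of the libraries, which can give no p below 0.00781). The share of mitochondrial transcripts averaged 11.5% ± 1.83 (SD, n = 8) in Foxa2 cells and 11.7% ± 1.39 in double-negative cells (p = 0.695 in the same exact test). Library totals ran from 633524 to 2627269 transcripts, and the summed cells that entered the comparison from 47099 (Foxa2 cells of replicate 6) to 1159139 (double-negative cells of replicate 3).

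Sox17 and T were high in different Foxa2 cells. Sox17 was found in 19 of 49 Foxa2 cells (38.8%, exact 95% interval 25.2% to 53.8%) and T in 37 (75.5%, 61.1% to 86.7%). By presence alone, 5 cells held Sox17 without T, 14 held both, 23 held T without Sox17 and 7 held neither. These intervals cover counting error only. Among double-negative cells, Sox17 was found in 12 of 243 (4.94%) and T in 126 (51.9%). When every cell was thinned to 2000 transcripts, Sox17 remained in 14.3% of Foxa2 and 1.23% of double-negative cells, and T in 44.9% and 22.2%.

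**Figure D1:**
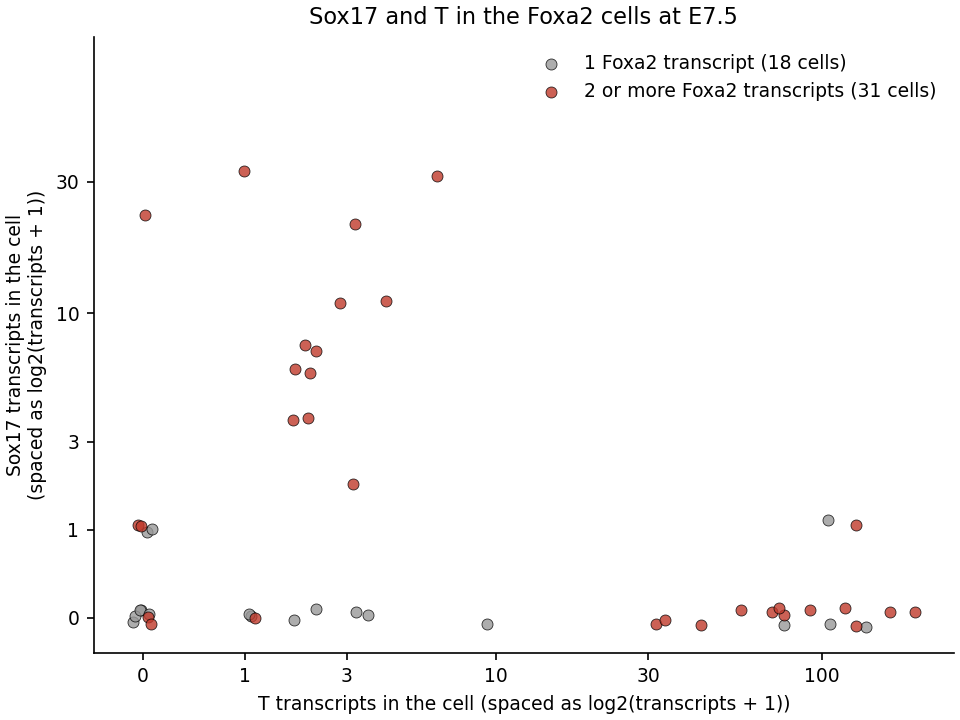
Each point is 1 of the 49 Foxa2 cells, with its T transcripts on the horizontal axis and its Sox17 transcripts on the vertical axis, both spaced as log2(transcripts + 1) and shifted slightly at random so that points do not hide each other. Cells with 2 or more Sox17 transcripts lie at 0 to 6 T transcripts, and cells with 30 or more T transcripts lie at 0 or 1 Sox17 transcript.

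Transcript numbers set the cells further apart than presence did. The 14 cells with both genes had a median of 2.5 T transcripts, and 2 of them had 30 or more, whereas the 23 cells with T alone had a median of 60, and 15 of them had 30 or more. With limits set after the values were seen, 13 cells had 2 or more Sox17 transcripts and 17 cells had 30 or more T transcripts. Those 13 cells held 0 to 6 T transcripts, and those 17 held at most 1 Sox17 transcript. No cell met both limits, which were placed with the values in view, so this describes the cells and supports nothing. The plot of Sox17 against T shows both sets of cells and the 19 remaining cells near its origin.

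Foxa1, Cer1 and Trh, which played no part in the choice, were found in nearly all cells rich in Sox17 and in fewer of those rich in T. All 13 cells with 2 or more Sox17 transcripts held Foxa1, a forkhead factor related to Foxa2, at 1 to 18 transcripts. All 13 also held Cer1, a secreted antagonist of Nodal, BMP and Wnt signals, at 1 to 74 transcripts, and 12 held Trh, which encodes the precursor of thyrotropin-releasing hormone. Among the 243 double-negative cells, 9 held Foxa1, 18 held Cer1 and 90 held Trh. Of the 17 T-rich cells, 10 held Foxa1 (up to 21 transcripts, the most of any Foxa2 cell), 6 held Trh and 4 held Cer1. Noto, a homeobox factor of the node, was at 0 in all 13 Sox17-rich cells (0 of 13 cells, which allows a share of up to 23.1%). Such limits apply to cells with a transcript counted, not to cells that express the gene, since a low transcript can be missed. The cell with the most Sox17 transcripts, 34 of them, was in replicate 12 and held 11 Foxa1, 15 Cer1, 44 Trh and 1 T transcript. Foxa2 cells of replicate 12 also had the highest level of visceral endoderm genes, given below. The 13 Sox17-rich cells came from 9 libraries.

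Chrd and Foxj1 were found in most cells rich in T and in some rich in Sox17. Of the 17 cells with 30 or more T transcripts, 13 held Chrd, a secreted BMP antagonist of the node, 14 held Foxj1, the master regulator of motile cilia, and 9 held Noto. Of the 13 Sox17-rich cells, 5 held Chrd (up to 4 transcripts) and 4 held Foxj1 (at most 1). The cell with the most T transcripts, 186 of them, was in replicate 1 and held 72 Foxa2, 75 Foxj1, 32 Chrd, 21 Foxa1, 6 Noto and no Sox17 transcript. T-rich Foxa2 cells came from 6 libraries (replicates 1, 2, 3, 4, 7 and 11), and of the 8 libraries compared replicates 6, 8 and 12 gave none. The kinds of Foxa2 cell thus differed between libraries, and each sum below mixes them in its own proportion.

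Of the T-rich cells, 4 held exactly 1 Foxa2 transcript. None of these 4 cells held Chrd, Noto, Foxa1 or Cer1, and 1 held Foxj1, although they carried 73 to 133 T transcripts. All 13 T-rich cells with 2 or more Foxa2 transcripts held Chrd (2 to 32 transcripts) and Foxj1 (1 to 75), and 9 of them held Noto. Their T range, 33 to 186, enclosed that of the cells with 1 Foxa2 transcript.

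Summed over the cells of each kind, some genes of the endoderm and node lists differed between the cells with Sox17 and those with T alone. Levels are in CPM, counts divided by the summed nuclear transcripts of those cells and scaled to a common total. Cer1 reached 370.2 CPM in the 19 cells with Sox17 and 41.9 CPM in the 23 cells with T alone. Prdm1, a repressor needed for endoderm and germ cells, reached 31.0 and 3.81 CPM. Cxcr4, a chemokine receptor of endoderm, was found in 7 of the 19 and in none of the 23 (0 of 23 cells, which allows a share of up to 13%). Foxj1 ran the other way, at 7.16 CPM in the cells with Sox17 and 429.4 CPM in those with T alone, as did Nog, another BMP antagonist, at 1.19 and 100.4 CPM. Noto was found in 10 of the 23 cells with T alone and in none of the 19 with Sox17 (0 of 19 cells, which allows a share of up to 15.8%). Dynlrb2, a light chain of ciliary dynein, was likewise found in 8 of the 23 and in none of the 19.

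Other genes were found in both. Lhx1, a LIM homeobox factor of the anterior streak and its derivatives, was found in 10 of 19 cells with Sox17 and 12 of 23 with T alone, against 32 of 243 double-negative cells (13.2%). Dgkk, a diacylglycerol kinase, was found in 16 of 19 and 17 of 23, against 84 of 243 (34.6%). Hhex, a homeobox factor of anterior endoderm, was found in 10 of 19 and 7 of 23, against 19 of 243 (7.82%). By summed level Hhex ran against Cer1 and Prdm1, at 22.7 CPM in the cells with Sox17 and 35.6 CPM in those with T alone. The Hhex transcripts of the cells with T alone came from 2 libraries. Shh, the ligand of the notochord, was near the limit of detection, in 1 of 19 and 3 of 23 cells. These shares describe cells pooled over libraries, and no test was made between the subsets.

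**Figure D2:**
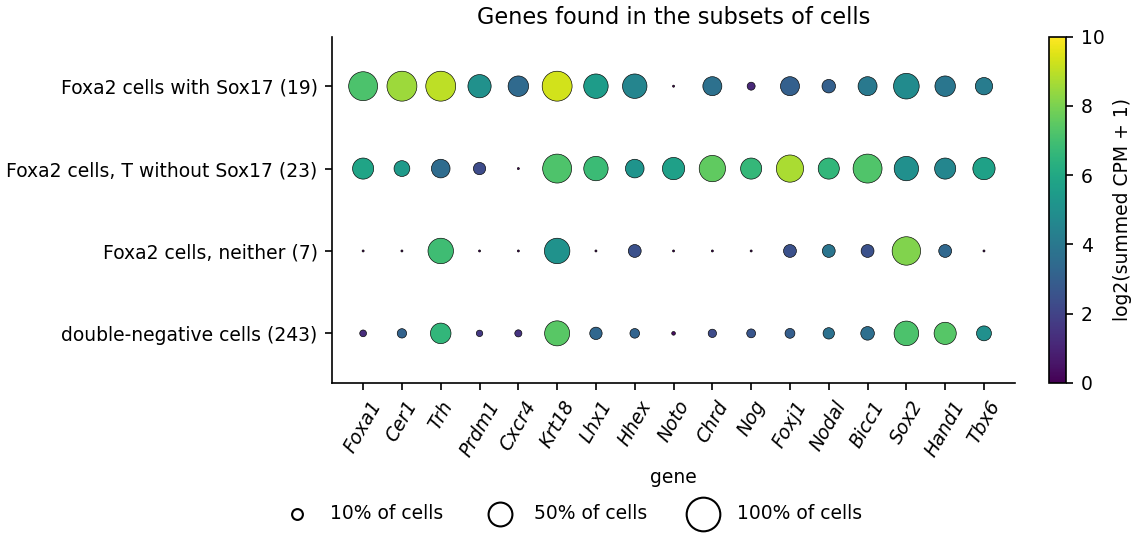
Columns are genes and rows are Foxa2 cells with Sox17, Foxa2 cells with T alone, Foxa2 cells with neither, and double-negative cells. Circle area gives the percent of cells holding the gene and colour gives log2(summed CPM + 1). Noto is absent from the cells with Sox17, and Cer1 has its highest level there (370.2 CPM against 41.9 CPM in cells with T alone).

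Cells with a single Foxa2 transcript made up 18 of the 49. Foxa1 was found in none of them (0 of 18 cells, which allows a share of up to 16.7%) and in 23 of the 31 cells with 2 or more Foxa2 transcripts. Sox17 was found in 3 of the 18 and 16 of the 31, Cer1 in 2 and 18, and Chrd in 2 and 18. Sox2, a transcription factor of the pluripotent epiblast and the neural ectoderm, was found in 13 of the 18 and 15 of the 31, against 129 of 243 double-negative cells (53.1%). Their median depth was 37688 transcripts, against 36102 in the cells with more Foxa2 and 23975 in the double-negative cells.

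Of the 19 cells below both limits on Sox17 and T, 14 had a single Foxa2 transcript. Foxa2 reached at most 4 transcripts in these 19 cells, and Foxa1 was found in none (0 of 19 cells, which allows a share of up to 15.8%). Sox2 was found in 15 of them.

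The main comparison asked which genes differed between Foxa2 and double-negative cells within the libraries. Of the genes called, Foxa1, Cer1 and Sox17 had the largest rises, followed by Dgkk (3.64 on the log2 scale; outside the naming rule and chosen after its value was seen), Upp1 and Slc16a1. Hand1 and Bmp4 had the largest falls. Of 5837 genes tested on sums per library, 129 passed an adjusted p of 0.05 (2.21%; edgeR quasi-likelihood test with the library as a block and Benjamini-Hochberg adjustment). Of these, 87 were higher in Foxa2 cells (1.49% of genes tested) and 42 were lower (0.72%). The difference had the same sign in all 8 libraries for 167 of the genes tested (2.86%), and 47 of the 129 were among them. Without the library as a block the count fell to 22, all among the 129, and without replicate 7 it fell to 44. Sums over cells cannot tell more cells of a kind from more RNA per cell, and the labels do not say that libraries came from separate litters, so p-values measure the spread between libraries.

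**Figure D3:**
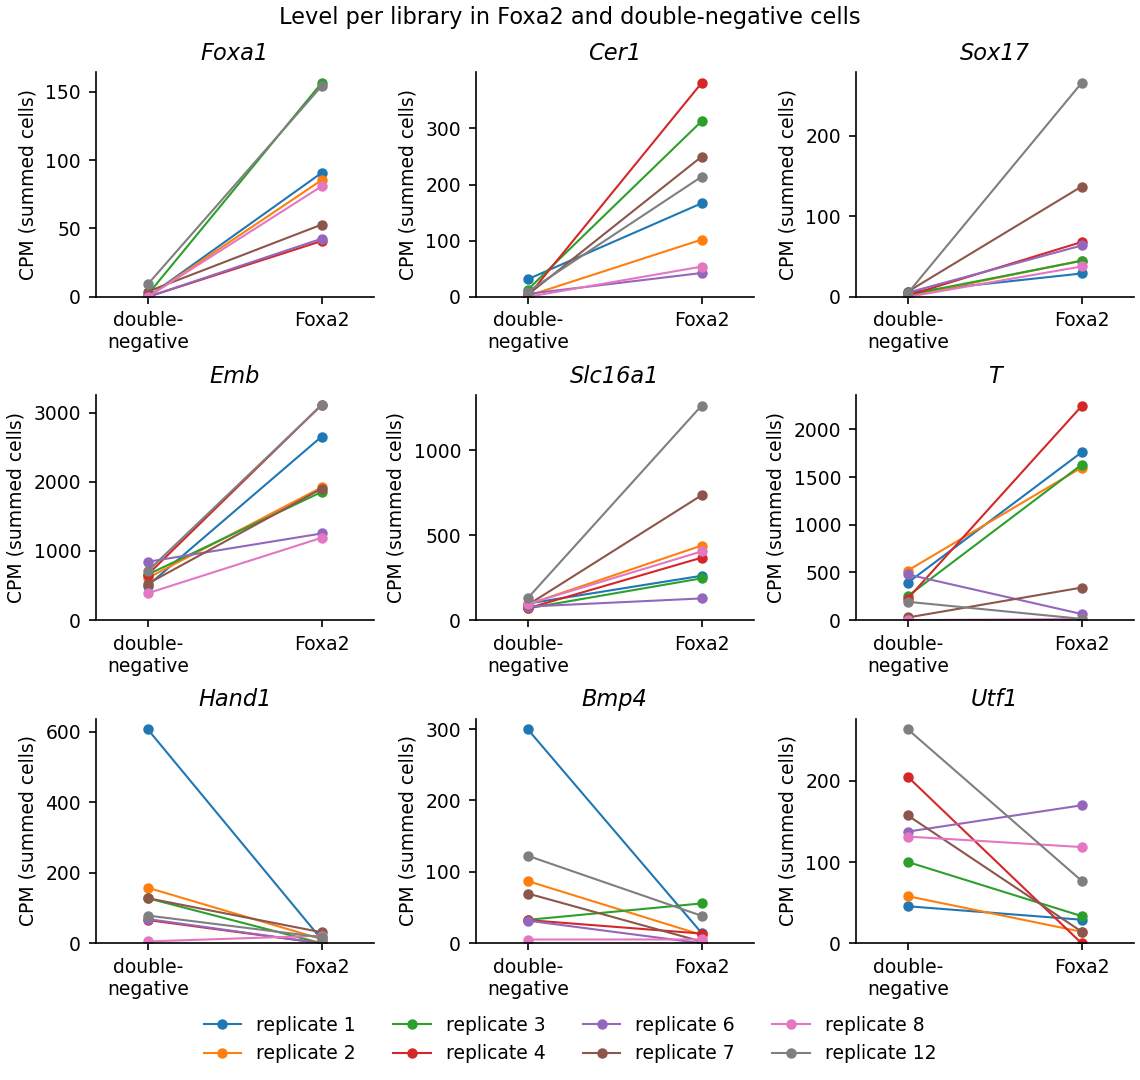
Each panel gives the CPM of 1 gene in the summed double-negative and Foxa2 cells of 8 libraries, with a line and colour for each library; vertical scales start at 0 and differ between panels. Foxa1, Cer1 and Sox17 rise in every library, T rises in 6 of 8, and Hand1 falls in 7 of 8.

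The summed levels of Foxa1, Cer1 and Sox17 were higher in Foxa2 cells of every library. Cell by cell they did not separate the 2 kinds, since 23, 20 and 19 of the 49 Foxa2 cells held them. Foxa1 lies on chromosome 12 at 57540628 to 57546916 (GRCm38, minus strand). Its level in Foxa2 cells was 40.8 CPM at the lowest, 83.1 at the median and 156.3 at the highest, against 0, 0 and 9.24 CPM in double-negative cells, where 5 of 8 libraries had none. The groups did not overlap, and Foxa1 was higher by 5.64 on the log2 scale (SE 0.438, edgeR adjusted p = 2.07e-09). Cer1, on chromosome 4 at 82881751 to 82885148 (minus strand), ran from 42.5 through a median of 190.2 to 380.8 CPM, against 0, 4.58 and 31.4 CPM. It was higher by 4.70 (SE 0.367, edgeR adjusted p = 2.07e-09), again with no overlap. Sox17 ran from 29.0 through 54.4 to 265.2 CPM, against 0, 3.6 and 6.45 CPM, a difference of 4.48 (SE 0.363, edgeR adjusted p = 3.7e-09). Foxa1, Cer1 and Sox17 were so low in double-negative cells that they could hardly have been called lower, so these calls are not support. Among the genes tested, 8 (0.137%) were higher in Foxa2 cells and 4 (0.0685%) lower with no overlap between the libraries' values. Every alternative that tested Foxa1, Cer1, Sox17 or Upp1 kept its call. Foxa1 and Cer1 were tested in 21 alternatives, Upp1 in 20 and Sox17 in 17, whereas Emb was tested in 25. Sox17 was not tested without replicate 2 or without replicate 7, among others. A gene too low to be tested could not lose its call.

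Sequences before the RefSeq starts of Foxa1 and Cer1 are shown because forkhead factors bind the words TGTTTAC and TGTTTGC, and these 2 genes had the largest rises. The 250 bases before the start in RefSeq are printed 5′ to 3′ on the gene's strand (GRCm38.p6), with matches to either word, on either strand, in capitals. The Foxa1 window is chr12:57546112-57546361 and the Cer1 window chr4:82885152-82885401, both on the minus strand. The RefSeq start of Foxa1 lies inside the GENCODE gene given above, which begins further upstream, so its window is upstream of the RefSeq start only.
Foxa1: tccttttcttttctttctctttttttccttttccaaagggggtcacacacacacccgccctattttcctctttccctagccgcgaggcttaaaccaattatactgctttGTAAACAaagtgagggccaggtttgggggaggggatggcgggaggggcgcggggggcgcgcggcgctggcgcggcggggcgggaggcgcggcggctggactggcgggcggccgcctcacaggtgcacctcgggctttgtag
Cer1: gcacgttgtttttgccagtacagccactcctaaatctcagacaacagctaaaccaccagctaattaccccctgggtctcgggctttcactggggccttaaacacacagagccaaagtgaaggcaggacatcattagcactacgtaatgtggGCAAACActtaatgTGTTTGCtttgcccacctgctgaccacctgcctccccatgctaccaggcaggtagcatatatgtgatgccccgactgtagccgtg
Foxa1 has 1 match, GTAAACA, that begins 141 bases before the start. Cer1 has 2, GCAAACA at 99 bases and TGTTTGC at 85 bases before it. Over 300 bases (250 before and 50 after the start), 8.48% of 32851 RefSeq promoters hold either word, 3.65% TGTTTAC and 5.07% TGTTTGC. Of the 15 genes most raised in every library, 14 had 17 promoters in the table, and 4 of the genes (Apela, Cer1, Foxa1 and Trp53i11) had a match. A match is a run of letters and was not tested as a binding site.

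Emb and Slc16a1, whose products work together in monocarboxylate transport, were higher in every library. Emb, an accessory protein of monocarboxylate transporters, was the most abundant gene among the 15 most raised, at 1191, 1910 and 3114 CPM (lowest, median and highest library) against 389.0, 634.2 and 843.4 CPM. Its groups did not overlap, and it was higher by 1.85 (SE 0.127, edgeR adjusted p = 5.31e-10). Slc16a1, which encodes monocarboxylate transporter MCT1, ran from 127.4 through 385.6 to 1262 CPM, against 69.0, 90.7 and 129.4 CPM. It was higher by 2.36 in all 8 libraries (SE 0.183, edgeR adjusted p = 2.07e-09), with an overlap of the lowest Foxa2 value, in replicate 6, and the highest double-negative value. Slc16a1 stood at 1076 CPM in the cells with Sox17 and 162.6 CPM in those with T alone, and without any cell holding Sox17 its call was lost. Upp1, a uridine phosphorylase, was higher by 2.38 (SE 0.328, edgeR adjusted p = 4.25e-05), at a median of 94.3 against 21.1 CPM.

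The other 9 of the 15 changed by 1.05 to 1.85. Cldn6, a claudin of tight junctions, was higher by 1.70 at a median of 351.8 against 132.2 CPM (SE 0.177, edgeR adjusted p = 5.9e-07). Flrt3, a membrane protein of cell adhesion, was higher by 1.75 with no overlap of the libraries (63.7 to 231.0 against 10.5 to 56.1 CPM; edgeR adjusted p = 8.18e-06). Apela, a peptide ligand of the apelin receptor, was higher by 1.51 at a median of 149.6 against 45.9 CPM (edgeR adjusted p = 0.000438). The tetraspanin gene Tspan7 was higher by 1.38 and the p53-induced gene Trp53i11 by 1.21, both with no overlap between libraries. Ap1s3, a subunit of a clathrin adaptor, rose by 1.85, Apbb2, an adaptor of the amyloid precursor protein, by 1.24, and the imprinted gene Nnat by 1.05. Without cells holding Sox17, the calls of Cldn6 (1.16), Flrt3 (1.05), Apela (0.53), Tspan7 (0.42) and Ap1s3 (0.81) were lost (edgeR adjusted p = 0.112, 0.139, 0.7, 0.796 and 0.573). Dync2h1, the heavy chain of the dynein that returns cargo along cilia, rose by 1.22 (SE 0.249, edgeR adjusted p = 0.00689).

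**Figure D4:**
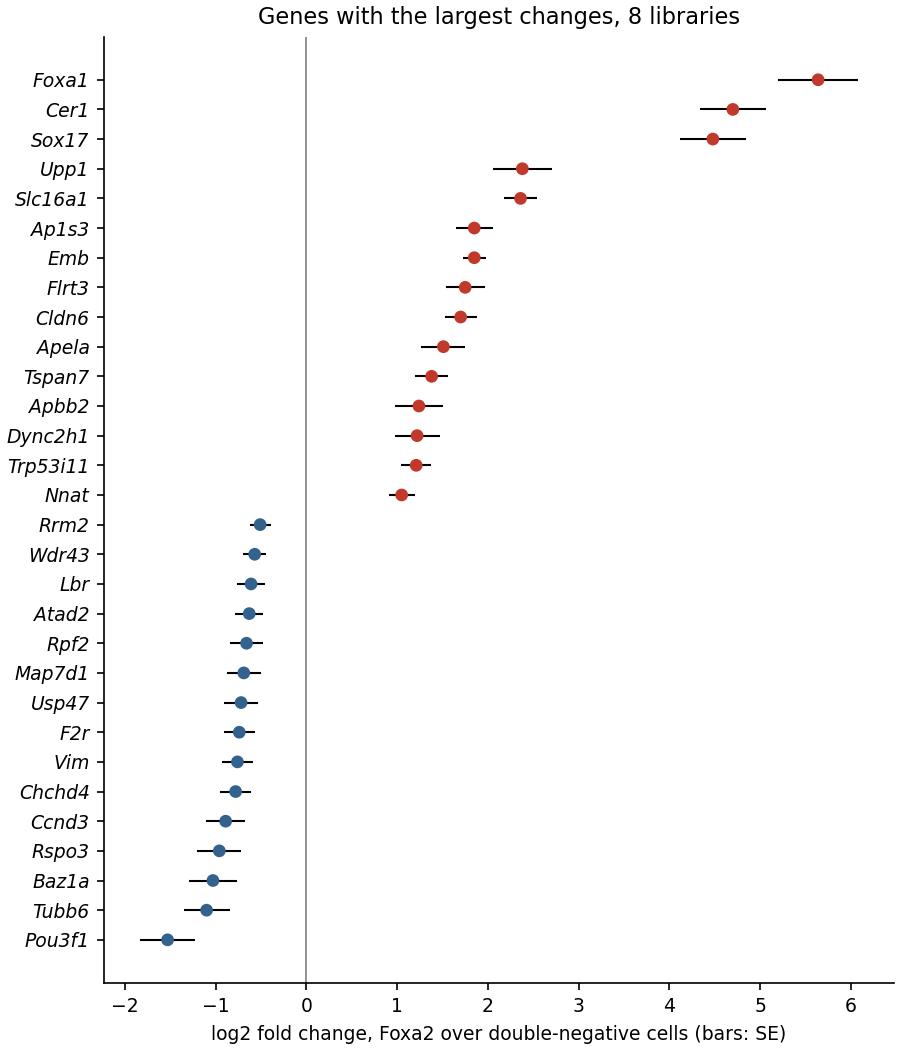
Points give the log2 fold change of Foxa2 over double-negative cells for the 15 genes most raised (red) and 15 most reduced (blue) among called genes of 1 sign in all 8 libraries; bars are 1 SE. Foxa1, Cer1 and Sox17 lie above 4, the next gene at 2.38, and the reduced genes between −1.53 and −0.51.

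The 15 genes most reduced in every library changed less. Pou3f1, a POU factor of epiblast and neural ectoderm, fell by 1.53 on the log2 scale (SE 0.303, edgeR adjusted p = 0.00527), at 9.6 to 70.0 CPM against 20 to 150.2 CPM. Rspo3, a secreted enhancer of Wnt signals, fell by 0.96, and Vim, the intermediate filament of mesenchymal cells, fell by 0.76 (SE 0.167, edgeR adjusted p = 0.0129). F2r, a thrombin receptor, fell by 0.74. Ccnd3, a G1 cyclin, had a change of −0.89, and Rrm2, a subunit of ribonucleotide reductase, one of −0.51. The ribosome assembly genes Rpf2 and Wdr43 had changes of −0.66 and −0.57. Lbr, the lamin B receptor (−0.61), and Wdr43 did not overlap between the groups. The other 6 of the 15 were Tubb6, a tubulin (−1.10), Baz1a, a chromatin remodelling subunit (−1.03), Chchd4, a factor of mitochondrial import (−0.78), Usp47, a deubiquitinase (−0.72), Map7d1, a microtubule-associated protein (−0.69), and Atad2, a chromatin ATPase (−0.63). Their edgeR adjusted p-values lay between 0.00527 (Pou3f1) and 0.0468 (Usp47), and every one of the 15 lost its call in 7 or more alternatives, the comparison without the library block among them.

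Sox17, Foxa1, Cer1, Emb and Trh stand for definitive endoderm in the test. Emb and Trh were not confined to Foxa2 cells. Emb was found in 235 of 243 double-negative cells (96.7%) and Trh in 90 (37%). A double-negative cell held up to 178 Trh transcripts, and a Foxa2 cell up to 87. All 5 of the 11 listed genes that passed the filter on low counts were higher, with a median log2 change of 4.48 against 0.00 over all genes. A gene that passed the filter only through the Foxa2 cells had to be higher, so neither the count of 5 nor the median is support. Trh ran from 25.4 through 179.3 to 611.7 CPM, against 18.5, 53.8 and 195.2 CPM, and was higher in 7 of 8 libraries by 1.54 (SE 0.307, edgeR adjusted p = 0.00541). Its call was lost without replicate 7, without the block, with at least 5 cells of each kind and among cells with T, and without cells holding Sox17 its change was −1.28. Of the genes not tested, Hhex was higher in 8 of 8 libraries (25.2 ± 17.6 against 6.57 ± 9.61 CPM, SD, n = 8), and Nepn was at 0 in all Foxa2 cells.

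Among node and axial genes, T alone passed the filter on low counts, which asks for a minimum count in as many sums as 1 kind of cell has libraries. T in Foxa2 cells was 1760, 1600, 1630 and 2244 CPM in replicates 1 to 4, then 63.7, 340.8, 10.8 and 12.8 CPM in replicates 6, 7, 8 and 12. The double-negative cells gave 392.2, 519.7, 251.0 and 225.8 CPM, then 478.5, 27.1, 0 and 191.8 CPM. Foxa2 cells were thus far higher in replicates 1 to 4 and 7, and lower in replicates 6 and 12. The difference was 1.88 (SE 0.405, edgeR adjusted p = 0.0108), and the call was lost without replicate 3, 4 or 7, without the block, and with DESeq2.

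The other node genes were left out by the filter, although some were as abundant in Foxa2 cells as Sox17 and Foxa1. Without the filter, Foxj1, Chrd and Noto were called higher (edgeR adjusted p = 4.64e-71, 7.08e-26 and 5.12e-13) and Shh was not (0.107). These genes were near 0 in double-negative cells and could hardly have been called lower, so these calls are not support. The fit without the filter also gave Foxa1 an edgeR adjusted p of 2.96e-38, against 2.07e-09 with it. Chrd averaged 86.6 ± 103.8 against 5.07 ± 4.89 CPM (SD, n = 8), higher in 5 of 8 libraries. Foxj1 averaged 219.6 ± 236.0 against 7.75 ± 10.4 CPM and was higher in 7 of 8. Noto averaged 33.6 ± 48.0 CPM and was found in Foxa2 cells of 4 libraries and in double-negative cells of 1. Among 12 genes of motile cilia, Rfx3, a transcription factor of ciliogenesis, was tested and was higher by 1.34 (SE 0.329, edgeR adjusted p = 0.0283), in 7 of 8 libraries. That call was lost without any one of replicates 1, 2, 3, 4 and 7.

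Among cells without Sox17, T and other streak genes were higher in the Foxa2 cells. Foxa2 cells without Sox17 (22 cells) were compared with double-negative cells without Sox17 (118 cells) in replicates 1, 2, 3 and 12, where 56 of 5418 genes were called (1.03%), 36 higher (0.664%) and 20 lower (0.369%). T was higher by 2.33 (SE 0.242, edgeR adjusted p = 5.95e-05). Of 6 tested streak genes, 4 were higher: T, Sp5, a Wnt target gene (1.6), Mixl1, a homeobox factor (1.89), and Eomes, a T-box factor (1.71, edgeR adjusted p = 0.0154). Tdgf1, the Nodal co-receptor Cripto, was higher by 2.33 (edgeR adjusted p = 0.000406). Also higher were Rfx3 (2.07), Ift81 and Ift74, both parts of the intraflagellar transport machinery (2.01 and 1.46), Kif3a, the kinesin that drives it (1.66), Dync2h1 (1.82), and Tctn2 of the ciliary gate (2.15). Rfx3 is on the motile cilia list and Dync2h1 among the 15 most raised; the other 4 were picked after their values were seen.

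Foxa2 cells with T (30 cells) were also compared with double-negative cells with T (97 cells). In replicates 1, 2, 3, 4 and 7, 69 of 6104 genes were called (1.13%), 51 higher (0.836%) and 18 lower (0.295%). Foxa1 was higher by 6.71, Cer1 by 5.01 and Sox17 by 4.09 (edgeR adjusted p = 1.41e-06, 7.77e-05 and 0.000272). T, by which both kinds of cell were chosen here, differed by 1.93, given with no test. Fgf5, a growth factor of the epiblast, was higher by 2.52 (edgeR adjusted p = 0.000272). Cdh2, the cadherin of mesoderm and neural tissue, was higher by 1.18, whereas Cdh11, a mesenchymal cadherin, and Pdgfra, a receptor of nascent mesoderm, were lower by −2.37 and −1.78. A comparison of cells without T could not be fitted, since replicate 12 alone had at least 3 such cells of each kind.

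Foxa2 cells with exactly 1 Foxa2 transcript, a comparison added after the values were seen, gave 0 of 5118 genes higher (0%) and 7 lower (0.137%). It used 9 Foxa2 and 79 double-negative cells of replicates 1, 2 and 12. Hand1 (−4.44), Bmp4 (−2.72), Krt8 (−2.83) and Krt18 (−2.09) were among the 7 (edgeR adjusted p = 0.004, 0.0188, 0.0126 and 0.0142). Krt8 and Krt18 encode the keratins of simple epithelia, and Krt18 was higher, not lower, in the comparison of all Foxa2 cells.

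Lateral and extraembryonic mesoderm genes had the lowest median change of the lists, −2.59 over 3 tested genes. Hand1, a bHLH factor of those tissues, was at 0, 11.4 and 31.2 CPM (lowest, median and highest library) in Foxa2 cells and 5.26, 103.1 and 606.2 CPM in double-negative cells. It was lower in 7 of 8 libraries by −3.27 (SE 0.383, edgeR adjusted p = 3.72e-06). Bmp4, a ligand made by extraembryonic mesoderm, was at 0, 12.7 and 55.8 against 5.26, 51.2 and 299.5 CPM, lower in 6 of 8 by −2.59 (SE 0.397, edgeR adjusted p = 0.00022). Msx1, a homeobox target of BMP signals, had a change of −1.54 that did not pass (edgeR adjusted p = 0.155), and none of the 12 genes other than these 3 was tested. Over all genes tested, 0.72% were lower. A gene that passed the filter only through the double-negative cells could hardly be called higher, so neither these calls nor the median is support. Summed over the list, the level was lower in Foxa2 cells of 7 of 8 libraries. Bmp4 lost its call without the library block and with DESeq2.

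Part of the epithelial list was higher. Of 20 listed genes 11 were tested, 6 were higher and none was lower, with a median change of 0.72 against 0.00 over all genes. Over all genes tested, 1.49% were higher and 0.72% lower. Cdh1, the cadherin of epithelia, was at 217.6, 305.8 and 547.5 CPM against 104.1, 239.2 and 286.5 CPM, higher by 0.77 in 7 of 8 libraries (SE 0.130, edgeR adjusted p = 0.000901). Epcam, an epithelial adhesion molecule, rose by 0.63, Esrp1, a regulator of epithelial splicing, by 0.97, Spint2, a protease inhibitor of epithelia, by 0.72, and Krt18 by 1.26; Cldn6, above, was the sixth. Krt8 had a change of 1.3 that did not pass (edgeR adjusted p = 0.0581). Krt18 stood at 638.8 CPM in the cells with Sox17 and 146.1 CPM in those with T alone, against 169.5 CPM in double-negative cells. Epcam, Esrp1 and Spint2 lost their calls in 13 to 15 alternatives each, including without TMM scaling. Krt18 lost its call or changed sign in 13, including with DESeq2, without the block and without any one of replicates 3, 4, 7, 8 and 12.

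Of 3 mesenchymal genes tested, Vim was lower, Fn1 (−0.71, edgeR adjusted p = 0.206) and Cdh2 (0.86, edgeR adjusted p = 0.0607) were not called, and the median was −0.71. None of 8 basement membrane genes was called, with a median of 0.35. The highest was Lama5, a laminin chain (0.74, edgeR adjusted p = 0.146). Over all genes tested, 2.21% were called, so lists this short would give few calls in any case.

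Genes of the pluripotent epiblast and ectoderm gave a mixed picture, in a comparison where 2.21% of all genes tested were called. Of 10 tested, Utf1, a chromatin factor of the epiblast, was lower by −1.52 (SE 0.304, edgeR adjusted p = 0.00541, in 7 of 8 libraries), as was Pou3f1, while Fgf5 was higher by 1.24 in 5 of 8 (SE 0.332, edgeR adjusted p = 0.0452). Fgf5 lost its call in 10 alternatives, including without TMM scaling. Sox2 was lower in 7 of 8 libraries but did not pass (−0.74, SE 0.359, edgeR adjusted p = 0.424). In replicate 6 it was the other way, at 360.9 CPM in Foxa2 cells and 26.4 CPM in double-negative cells, and without that replicate Sox2 was called. Pou5f1, the pluripotency factor Oct4, had a change of −0.24 (edgeR adjusted p = 0.546).

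Among streak genes, Sp5 was higher by 1.32 (SE 0.278, edgeR adjusted p = 0.00932), in 6 of 8 libraries, and T as given above. Eomes had a change of 0.85 with a range of 13.6 to 333.2 CPM in Foxa2 cells and 9.03 to 335.8 CPM in double-negative cells (edgeR adjusted p = 0.293). Neither paraxial mesoderm gene tested was called, where 2.21% of all genes tested were. Blood, endothelial and extraembryonic ectoderm genes were too low to test. Summed over the blood and endothelial list, the median library had 33.6 CPM in Foxa2 cells and 222.7 CPM in double-negative cells. For extraembryonic ectoderm these values were 21.5 and 46.5 CPM. Each sum was higher in Foxa2 cells in 2 of 8 libraries, and neither was tested.

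**Figure D5:**
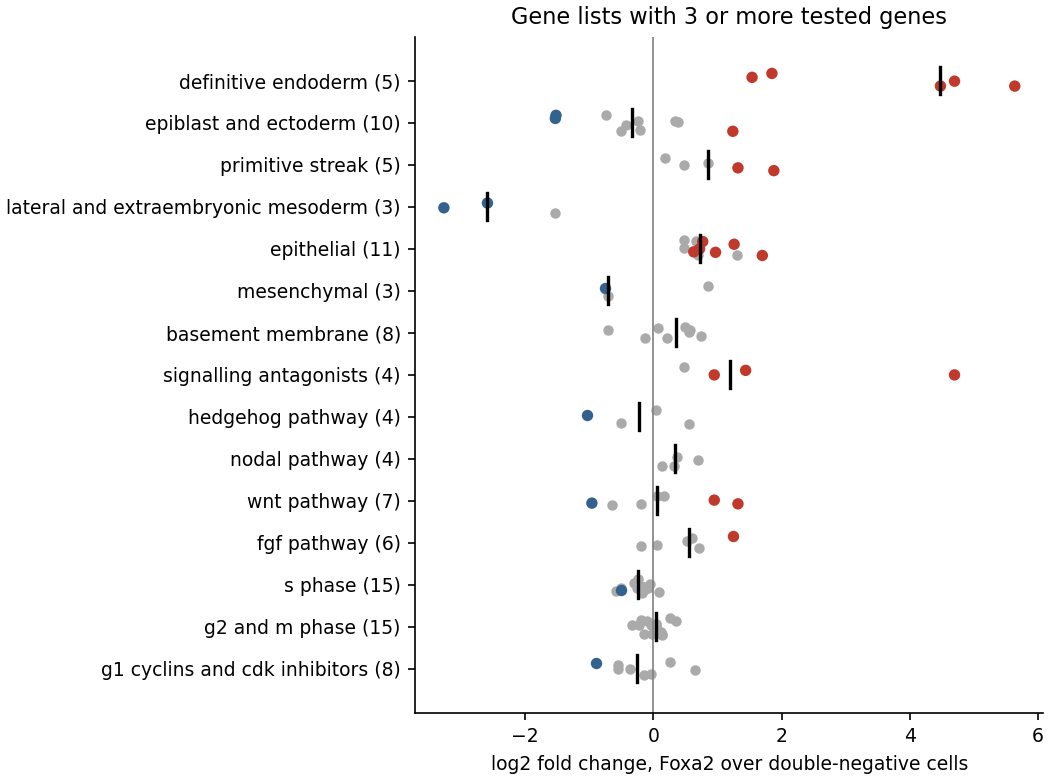
Each point is a tested gene, placed by its log2 fold change of Foxa2 over double-negative cells (horizontal axis) in the row of its list, with the number tested in brackets; red and blue mark genes called higher and lower, grey those not called, and black bars the list medians. Points are spread vertically at random within a row. The 5 endoderm genes lie to the right, and the lateral mesoderm row has its median at −2.59 over 3 genes, both by the filter in part. The medians of the cell cycle rows lie between −0.26 and 0.04.

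Of the secreted antagonists, 4 were tested, in a comparison where 1.49% of all genes tested were higher. Of these 4, 3 were higher: Cer1, Frzb (1.44, SE 0.294, edgeR adjusted p = 0.00689, in 7 of 8 libraries) and Sfrp1 (0.95, SE 0.205, edgeR adjusted p = 0.0109, in 6 of 8), both of which bind Wnt ligands. Frzb and Sfrp1 lost their calls without replicate 7 and without the block, as did Utf1, Sp5 and Gas1. The fourth, Fst, which binds activin, had a change of 0.48 (edgeR adjusted p = 0.524), with 561.5 CPM in the cells with T alone and 108.7 CPM in those with Sox17.

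In the Wnt list, Sp5 and Sfrp1 were higher, Rspo3 was lower and 4 genes were not called, Axin2 (0.06) and Lef1 (−0.65) among them, for a median of 0.06. None of 4 Nodal pathway genes was called, with a median of 0.34. In the hedgehog list, Gas1, a co-receptor of the pathway, was lower by −1.04 (SE 0.245, edgeR adjusted p = 0.0215), and Ptch1, the receptor and a target of the signal, had a change of 0.55 (edgeR adjusted p = 0.546). Of 6 FGF pathway genes, Fgf5 was called. With 2.21% of all genes tested called, pathway lists this short would give few calls in any case.

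Few cell cycle genes were called, in a comparison where 2.21% of all genes tested were called, so the counts of calls say little about these lists. Of 15 S phase genes, Rrm2 was lower and 14 were not called, with a median of −0.24. The summed level of that list was nevertheless lower in Foxa2 cells of all 8 libraries (2448 to 3480 CPM against 3446 to 3648 CPM). None of 15 G2 and M phase genes was called (median 0.04), and of 8 G1 cyclins and inhibitors Ccnd3 was.

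Visceral endoderm could also carry Foxa2, and 7 of 8 libraries gave it little signal in Foxa2 cells. Of the 49 Foxa2 cells 1 held, and of the 243 double-negative cells 1 held, at least 3 of 8 defining visceral endoderm genes. Afp, an abundant serum protein of that tissue, gave 1 transcript in all Foxa2 cells, and Ttr, another, gave 23, of which 22 were in a single cell. Summed over 14 genes, the level in Foxa2 cells was 43.1 to 149.6 CPM in 7 libraries and 855.5 CPM in replicate 12, against 73.6 to 127.1 CPM in double-negative cells. The cell with 22 Ttr transcripts held both Sox17 and T. Without the marked Foxa2 cell, Sox17 was found in 37.5% and T in 75% of 48 Foxa2 cells. The marked Foxa2 cell thus held both genes too. It was not identified further. In replicate 12, the library with 855.5 CPM, the Foxa2 cells holding both genes had 34 and 6 Sox17 transcripts. If the marked cell came from that library, it is among the Sox17-rich cells above. Without the marked cells 137 genes were called, and Foxa1, Cer1 and Sox17 kept their calls.

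Strand was not stated, and 15 of the 46 called genes chosen for naming overlap a gene on the other strand in the annotation: Sox17 overlaps Gm37587, Flrt3 overlaps Macrod2 and Emb overlaps Gm17509. Reads of such pairs cannot be told apart here.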

How the data were processed

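Single-cell libraries were made with mCEL-Seq2 at E7.5, which tags each cell and each RNA molecule, per the labels' protocols. Reads were handled with bcl2fastq 2.17.1.14 and BWA 0.6.2-r126, per the submitters' processing notes; the genome build, annotation and use of strand are not given in the sources used here. The deposited values are expected counts per gene and barcode, in which the authors corrected molecule counts for collisions among 4096 tags, as the values themselves show. They were rounded to whole numbers here and summed over the cells of each kind in each library; spike-in and mitochondrial rows were left out.

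The 8 libraries had 633524 to 2627269 transcripts each. The test was edgeR 4.0.16 (R 4.3.3; TMM scaling, filterByExpr, quasi-likelihood F test, library and kind of cell as terms), with p-values adjusted by Benjamini-Hochberg over all 5837 genes tested and a threshold of 0.05. Both kinds of cell came from the same library, which is where the pairing comes from. Standard errors are the log2 fold change over the square root of F. Python 3.11.15 was used for the counts per cell and the exact tests. No doublet caller was run on these sorted cells; without cells deeper than 3 times the median of their library, 129 genes were called. Of 160 barcode numbers used by these cells, 89 occurred in 2 or more libraries, since every library draws on the same set. The script was tested on simulated data.

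Members and gene lists were chosen with earlier results of these data known. Named genes are the 15 highest and 15 lowest called genes of 1 sign in all libraries, called genes of 21 lists, and 11 fixed genes. Positions are from GENCODE for GRCm38 and promoters from RefSeq. Alternatives were DESeq2 1.42.0, other scaling, filters, depths and gates, and leaving out each library.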

Additional observations from a re-analysis of the deposited data

Results flagged for a closer look

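For 51 sets of 8 library values, the log2 ratio of Foxa2 to double-negative CPM (5 CPM added to each) was searched for a library far from the others, a search that marks about 1 in 20 sets by chance. Rspo3 stood at −3.47 in replicate 4, with the other libraries at −1.71 to −0.56. F2r stood at −2.77 in replicate 6, with the others at −1.25 to −0.24. Gas1 stood at −3.72 in replicate 6, with the others at −1.67 to 0.06. Lbr stood at −1.99 in replicate 3, with the others at −0.93 to −0.13. Sox2 stood at 3.54 in replicate 6, against −2.91 to −0.34 in the others. Replicate 6 had 3 Foxa2 cells and the smallest sum of transcripts, 47099.

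Barcodes of the E7.5 libraries that received no cell held 8 Foxa2 transcripts, against 521 in barcodes in use.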

How the results depend on the processing

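The number of genes called was 129. It was 536 without a filter on low counts (19336 genes tested, 55.4% of calls higher against 67.4%), 22 with no replicate block (90.9% higher), 44 (without replicate 7) to 159 (without replicate 6) on leaving out 1 library, among them 76 without replicate 2 and 77 without replicate 3, and 78 with at least 5 cells of each kind. Thinning cells to 2000 transcripts gave 6 of 261 genes after the cells were chosen and 13 of 1021 before. At least 2 Foxa2 transcripts gave 85, cells without Sox17 56, cells with T 69 and exactly 1 Foxa2 transcript, chosen after seeing the data, 7. DESeq2 gave 99, of which 94 were among the 129. Cells without T could not be fitted.

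The difference in mitochondrial share was −0.24 points; it was −0.76 to 0.17 on leaving out 1 library (0.17 without replicate 4) and 0.05 with Mesp1 cells kept. Sox17 was found in 12.5% of Foxa2 cells when cells were thinned before choosing. With exactly 1 Foxa2 transcript the log2 changes with reversed sign were Ap1s3 −0.13, Cldn6 −0.38, Apela −0.89, F2r 0.51, Trh −0.88, Rfx3 −0.75, Krt18 −2.09, Spint2 −0.34, Sox2 0.09 and Pou5f1 0.28. In cells without Sox17 they were Trh −1.28, Krt18 −0.92, Sox2 0.04 and Pou5f1 0.39. The causes were not tested, apart from the fewer cells or genes that thinning and the subsets leave.

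Of 46 named genes called, Foxa1, Cer1, Sox17 and Upp1 stayed called in every alternative that tested them (21, 21, 17 and 20 alternatives). Over 1045 such tests, 730 kept the call, 305 lost it and 10 changed sign. Sox2 (−1.15) and Eomes (1.22) were called without replicate 6 (edgeR adjusted p = 0.00739 and 0.0297).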

Other observations

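The genes in these paragraphs were chosen after their values were seen, and carry no weight as a set. Among the 129 called genes outside the lists, 4 imprinted genes picked by name were lower in Foxa2 cells. Imprinted genes were not counted as a set, and others among the called genes are not covered here. Phlda2, which restrains placental growth, had a log2 change of −1.92 (edgeR adjusted p = 3.28e-06), Mest −1.51, the noncoding RNA H19 −1.50 and its neighbour Igf2, a growth factor, −1.35. Nnat, which is imprinted too, was higher by 1.05.

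Ift81, a part of the intraflagellar transport machinery, was higher by 1.35 (edgeR adjusted p = 0.0237). Bmp7, a BMP ligand, was higher by 1.88 and Ndrg1, a stress-induced gene, by 2.18, whereas Bmp4 was lower. Sox9, a transcription factor of many progenitors, was higher by 1.66 (edgeR adjusted p = 0.043), and Tcf7l2, a transcription factor of the Wnt pathway, by 1.38.

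All 10 called genes whose names begin with Gm and a number were higher, out of 122 such genes tested, of which 72 had a positive change. Over all 5837 genes tested, 129 were called (2.21%), and 87 of the 129 were higher. Gm26870 overlaps Gm10715 and Gm10717 on the other strand of chromosome 9, so such genes need not be separate signals. Gm10800 had 42128 CPM on average in Foxa2 cells and 27429 CPM in double-negative cells, a log2 change of 0.63 (edgeR adjusted p = 1.27e-06). How the authors' counting assigned reads that match several places was not tested for these genes, so their counts are uncertain.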
